A study of Bos taurus with 20 samples.

Results

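ATP6AP1 and ATP6V0D1 are 2 of the 24616 genes listed in the processed files of 20 rumen epithelium libraries, and were followed under their Ensembl identifiers ENSBTAG00000012117 (ATP6AP1) and ENSBTAG00000014553 (ATP6V0D1). Each library came from 1 Hereford x Aberdeen Angus hybrid steer, none was pooled, and all steers had been fed the same finishing diet before rumen papillae were cut from tissue taken at slaughter. The age at slaughter was not given in the sources used here. Residual feed intake (RFI) is the feed an animal eats beyond what its size and growth predict, so that a low-RFI steer is the more efficient one. The sample labels assign 11 steers to High RFI and 9 to Low RFI. They divide by steer number, with High RFI up to steer 205 and Low RFI from steer 219. The steer list in the study's supplement does not divide by number. It gives the opposite group for 6 of these steers and leaves out steers 281 and 345. The main RFI comparisons of both genes below are therefore given for the 2 groupings. The column header of each file also carries a code whose 2 middle digits are 01 in 8 libraries, 03 in 6 and 12 in 6. What these digits stand for was not given in the sources used here, and the libraries are called set 01, set 03 and set 12.

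The vacuolar proton pump (V-ATPase) is a rotary enzyme of endosomes, lysosomes, the Golgi and some plasma membranes. Its soluble sector splits ATP, and its membrane sector carries protons across the membrane and so acidifies the compartment or the space outside the cell. ATP6V0D1 encodes subunit d of the membrane sector, which couples the turning central stalk to the proton-carrying ring. ATP6AP1 encodes the accessory glycoprotein Ac45, which is needed for assembling the pump and sorting it to its membranes. In rumen epithelium, which takes up short-chain fatty acids from an acid content, proton transport bears on both the uptake of acids and the pH of the cell. Of 23 other V-ATPase genes chosen by symbol, 0 could be paired with an identifier of the files, and they were not analysed here. In the RefSeq gene table of assembly ARS-UCD2.0, ATP6V0D1 stands between HSD11B2 and AGRP. No gene overlaps ATP6V0D1 or ATP6AP1, and neither symbol occurs more than once.

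The reads counted on genes were between 9622534 and 13960297 per library (median 11829722), and both genes were well covered. ATP6AP1 had between 852 and 1652 reads per library (median 1250.5) and ATP6V0D1 between 1093 and 2422 (median 1846.5). Of 6 markers of stratified epithelium, 3 were nearly absent from these libraries and 3 were present. The basal keratin KRT14 had between 0 and 16 reads (0 in 1 library), the desmosomal gene PKP1 between 1 and 8, and ZNF750, a regulator of epidermal differentiation, between 0 and 6 (0 in 5 libraries). A library with 0 reads could still hold up to 3, which are worth 0.215 to 0.312 CPM across the libraries. The markers present had 31 to 79 reads for LYPD3, 194 to 660 for PKP3 and 211 to 742 for LLGL2. MYL9, a myosin light chain of contractile cells, had between 3038 and 6295 reads. The libraries also differed in make-up beyond the labels. On the first principal component (PC1) of the 500 most variable other genes, which held 82.2% of their variance, the libraries of steers 155, 47, 345, 317 and 105 had the highest scores, from 59.2 down to 22.2, while 15 libraries lay between -24.6 and 11.9. Results are given with and without steers 47, 105, 155 and 317, a choice made with earlier results of these data known, which keeps steer 345.

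ATP6AP1 varied less across the libraries than ATP6V0D1, by a margin that depended on the scaling. The deposited values are reads per 1000000 reads counted on genes (CPM), and they were also scaled by the trimmed mean of M-values (TMM), which sets the bulk of genes to the same level in each library. On the TMM scale ATP6AP1 was lowest in steer 219 (91.2 CPM), had a median of 106 CPM and was highest in steer 155 (120 CPM). Its highest library was therefore 1.32 times its lowest. ATP6V0D1 was also lowest in steer 219 (101 CPM), had a median of 153 CPM and was highest in steer 47 (258 CPM), 2.55 times its lowest value. The coefficient of variation over the 20 libraries was 7.80% for ATP6AP1 and 28.4% for ATP6V0D1, against counting errors of 2.83% and 2.31%, and only 1.11% of the 14293 genes tested varied less than ATP6AP1. On this scale 42.2% of the genes varied less than ATP6V0D1, so its spread was somewhat below that of the median gene (32.5%). On the deposited scale the coefficients were 8.96% and 16%, against 30.7% for the median gene. There 2.78% of the genes varied less than ATP6AP1 and 18.6% less than ATP6V0D1. Without steers 47, 105, 155 and 317 the coefficients were 6.10% and 19.5% on the TMM scale.

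**Figure D1:**
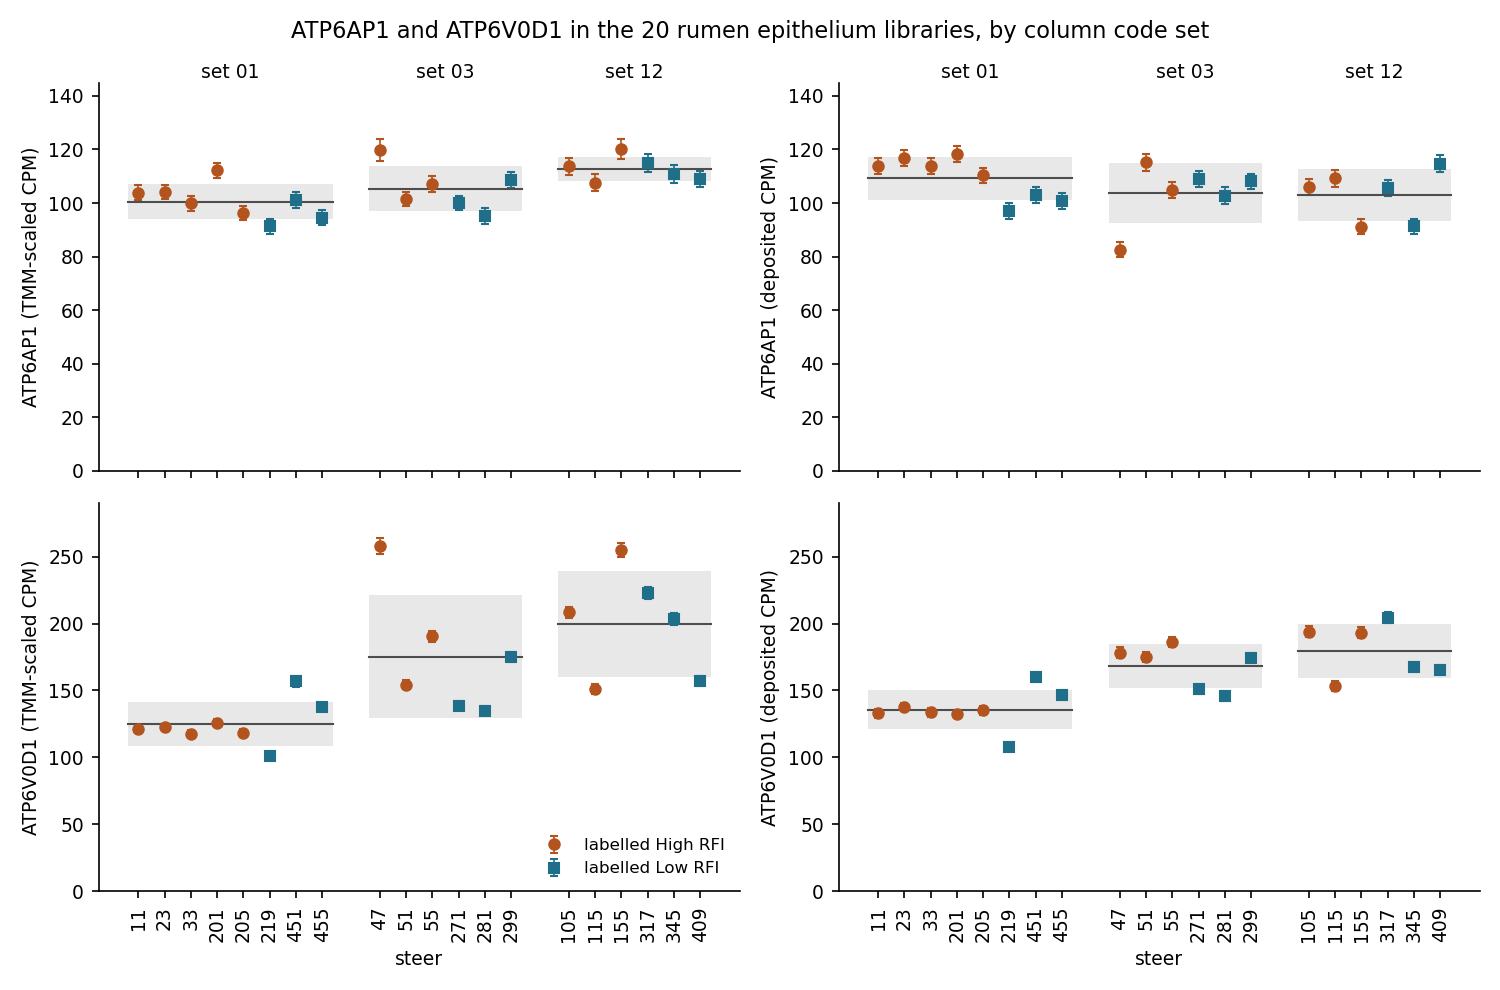
CPM of ATP6AP1 (top) and ATP6V0D1 (bottom) in each of the 20 libraries, named by steer and ordered by set, on the TMM scale (left) and as deposited (right). Circles are steers labelled High RFI and squares Low RFI, with counting errors of the reads, lines are set means and grey bands are 1 SD. ATP6V0D1 is lowest in set 01 on both scales, while the order of the set means of ATP6AP1 is reversed between the scales.

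The 3 sets of libraries differed in ATP6V0D1 (limma F-test, adjusted p = 0.00862), as they did in 53.7% of all genes tested, while ATP6AP1 did not pass (adjusted p = 0.0901). In set 01, ATP6V0D1 was between 101 and 157 TMM-scaled CPM (median 122), with a mean of 125 ± 16.3 (SD, n = 8). In set 03 the range was 135 to 258 (median 165) and the mean 175 ± 45.8 (SD, n = 6), and in set 12 the range was 151 to 255 (median 206) and the mean 199 ± 39.6 (SD, n = 6). The sets overlapped in every pair, and the order was set 01, set 03, set 12. Of all genes, 1.36% had no overlap between sets 03 and 01, 19.1% between sets 12 and 01 and 1.16% between sets 12 and 03. Set 12 exceeded set 01 by 0.65 on the log2(CPM + 1) scale, or 1.57-fold (SE 0.14, 95% interval 0.35 to 0.95, limma adjusted p = 0.00277). The same contrast was called for 62.5% of all genes tested (30.8% higher and 31.6% lower), and 86.1% of them had a lower log2 difference than ATP6V0D1. A call in this contrast was therefore not particular to this gene. In these bulk libraries, fewer cells of a type and less RNA per cell cannot be told apart.

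Set 03 stood between the other two sets. Its ATP6V0D1 level exceeded that of set 01 by 0.46 on the log2 scale (SE 0.14), which did not pass the threshold across genes (limma adjusted p = 0.129), where 0.385% of the genes were called. As a single value the difference had an exact permutation p of 0.0040 (adjusted over the 3 pairs of sets, 0.0060), and 90.3% of the genes had a lower difference. Set 12 exceeded set 03 by 0.20 (SE 0.15, limma adjusted p = 0.375, with 0.553% of the genes called, 0.252% higher), a difference within the spread of these neighbours. Without steer 47 the difference was larger, at 0.33 (limma adjusted p = 0.0509), and 7375 genes were called in place of 79. Without steers 47, 105, 155 and 317 set 12 still exceeded set 01, by 0.45 (limma adjusted p = 0.0209). With all libraries kept, it did so on the deposited scale by 0.40 (limma adjusted p = 0.00293).

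ATP6AP1 moved less between the sets, and its direction depended on the scaling. On the TMM scale it was between 91.2 and 112 CPM in set 01 (median 100.5), with a mean of 100.4 ± 6.53 (SD, n = 8). Set 03 spanned 95.3 to 120 CPM (median 104) with a mean of 105 ± 8.53 (SD, n = 6), and set 12 spanned 108 to 120 CPM (median 112) with a mean of 113 ± 4.65 (SD, n = 6). The sets overlapped, and set 12 exceeded set 01 by 0.17 on the log2 scale, or 1.12-fold (SE 0.065, limma adjusted p = 0.0322), in a contrast called for 62.5% of all genes. The call was lost when steer 105 (limma adjusted p = 0.0536), 155 (0.0755) or 317 (0.0587) was left out, and without steers 47, 105, 155 and 317 the difference was 0.13 (limma adjusted p = 0.172). As deposited, ATP6AP1 was 109 ± 7.96 CPM in set 01, 104 ± 11.2 in set 03 and 103 ± 9.65 in set 12, and the difference of set 12 from set 01 was -0.087 (limma adjusted p = 0.346). Deposited CPM also shifted the median of all genes by -0.23 between these sets, and relative to that median ATP6AP1 was higher in set 12 by 0.15, against 0.17 on the TMM scale. For ATP6V0D1 the values relative to the median of all genes were 0.63 and 0.66. On the deposited scale 2905 genes were called higher and 5585 lower in set 12, against 4407 and 4520 after TMM scaling. Set 03 differed from set 01 by 0.068 (limma adjusted p = 0.442) and set 12 from set 03 by 0.099 (limma adjusted p = 0.332) on the TMM scale, so neither step passed for ATP6AP1.

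Other measures of the libraries moved with the sets as well. MYL9 ranged from 231 to 398 TMM-scaled CPM in set 01, from 304 to 641 in set 03 and from 445 to 655 in set 12, and set 12 exceeded set 01 by 0.85 on the log2 scale (limma adjusted p = 0.00193). The endothelial receptor KDR was lower in set 12 than in set 01 (log2 difference -0.56, limma adjusted p = 0.0413), with ranges of 33.8 to 51.2 CPM in set 01, 18.3 to 61.0 in set 03 and 18.7 to 41.9 in set 12. This contrast was called for 62.5% of all genes tested (30.8% higher and 31.6% lower), so neither call was particular to MYL9 or KDR. Of the 6 stratified epithelium markers 3 passed the filter and none of these was called in any pair of sets by limma. Set 03 against set 01 was called for 0.385% of all genes and set 12 against set 03 for 0.553%. The polarity gene LLGL2 passed the F-test over the sets (adjusted p = 0.0117), as did 53.7% of all genes. Its difference of set 12 from set 03 was -0.55 (limma adjusted p = 0.0523). The sums of the 6 markers were 49.6 to 64.8 CPM in set 01, 56.4 to 116 in set 03 and 43.2 to 70.8 in set 12. The part of these measures in the levels of ATP6AP1 and ATP6V0D1 was not tested.

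The ratio of ATP6V0D1 to ATP6AP1 within a library depends on the scaling of that library only through the pseudocount. It is not corrected for the lengths of the transcripts, so it compares libraries with each other and not the level of one gene with that of the other. In steers 11, 23 and 33 of set 01 the log2 ratio was 0.22, 0.23 and 0.23, with a counting error of about 0.05 each. In the other libraries of that set it was 0.16 in steer 201, 0.29 in steer 205, 0.15 in steer 219, 0.63 in steer 451 and 0.54 in steer 455. The last pair thus stood above the other 6, and theirs are the codes of this set that start with C in place of A or B. In set 03 the log2 ratio was 1.10 in steer 47, 0.60 in steer 51, 0.82 in steer 55, 0.47 in steer 271, 0.50 in steer 281 and 0.68 in steer 299. In set 12 it was 0.87 in steer 105, 0.49 in steer 115, 1.08 in steer 155, 0.95 in steer 317, 0.87 in steer 345 and 0.52 in steer 409. Every library of sets 03 and 12 lay above the 6 libraries of set 01 whose codes start with A or B, and steers 451 and 455 lay within the range of the other 2 sets. As whole sets the ratios overlapped in every pair. The split by letter was not planned and was not tested.

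**Figure D2:**
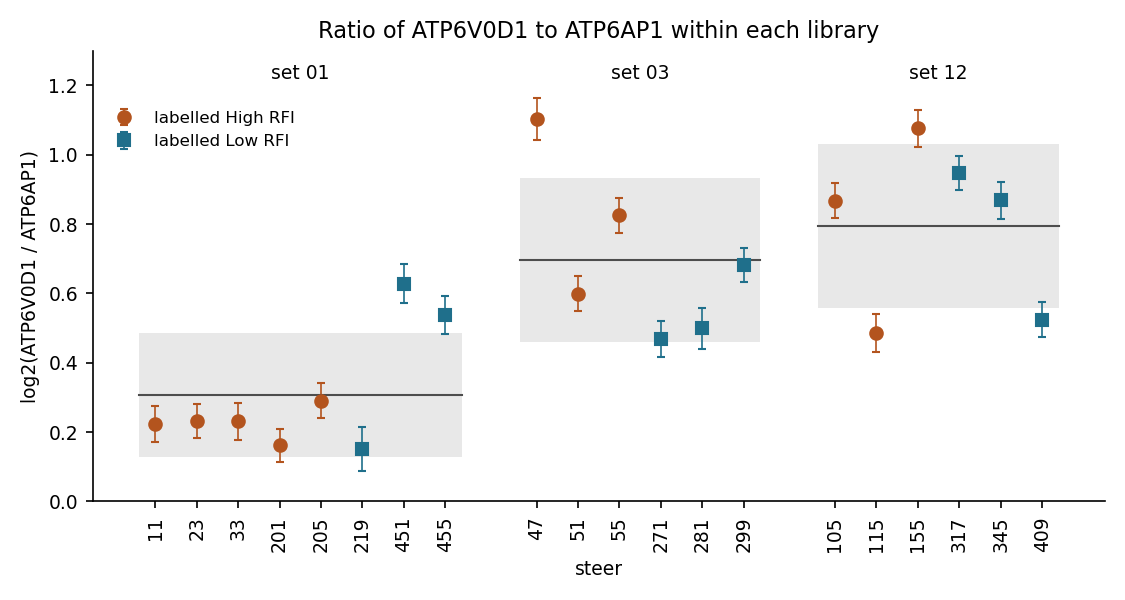
Log2 ratio of ATP6V0D1 to ATP6AP1 in each library, named by steer and ordered by set, with circles for High RFI and squares for Low RFI labels, bars for the counting error, lines for set means and bands of 1 SD. The 6 libraries of set 01 with codes starting with A or B lie between 0.15 and 0.29, and the 12 libraries of sets 03 and 12 between 0.47 and 1.10. Steers 451 and 455 of set 01, with codes starting with C, lie at 0.63 and 0.54, so the whole sets overlap.

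The log2 ratio averaged 0.31 ± 0.18 (SD, n = 8) in set 01, 0.70 ± 0.24 (SD, n = 6) in set 03 and 0.79 ± 0.24 (SD, n = 6) in set 12. Set 12 exceeded set 01 by 0.49 (exact two-sided permutation test, p = 0.00233, adjusted over the 3 pairs 0.00649) and set 03 exceeded set 01 by 0.39 (exact p = 0.00433, adjusted 0.00649). Sets 12 and 03 differed by 0.099, which was smaller than the SD within either (exact permutation p = 0.474). Without steers 47, 105, 155 and 317 the difference of set 12 from set 01 was 0.32 (exact permutation p = 0.0364, adjusted 0.0545) and that of set 03 from set 01 was 0.31 (exact permutation p = 0.0124, adjusted 0.0373). Over all 20 libraries the SD of the log2 ratio was 5.66 times the counting error.

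Whether the pair rose and fell together depended on the scaling. After TMM scaling the log2 levels of the 2 genes had a Pearson's r of 0.83 and a Spearman's rho of 0.79 across the 20 libraries (two-sided permutation tests, p = 1e-05, the smallest that 100000 permutations can give, and 5e-05). Without steers 155 and 219, which lie farthest from the median of ATP6AP1, r was 0.75. Without steers 47, 105, 155 and 317, r was 0.61 (n = 16, permutation p = 0.0118). Within the sets r was 0.30 in set 01 (n = 8, exact permutation p = 0.485), 0.97 in set 03 (n = 6, exact permutation p = 0.00278) and 0.95 in set 12 (n = 6, exact permutation p = 0.00139). With CPM as deposited, r was -0.29 (permutation p = 0.212) and rho -0.37 (permutation p = 0.110), and within the sets it was 0.15, -0.18 and -0.25. The libraries of steers 47, 155 and 345 show where the scales part. Steer 47 had the lowest deposited value of ATP6AP1 (82.6 CPM), followed by steers 155 (91.2 CPM) and 345 (91.3 CPM), and their TMM factors of 0.690, 0.758 and 0.824 were the lowest of the 20. After scaling, their ATP6AP1 values of 120, 120 and 111 CPM stood above the median of 106 CPM.

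**Figure D3:**
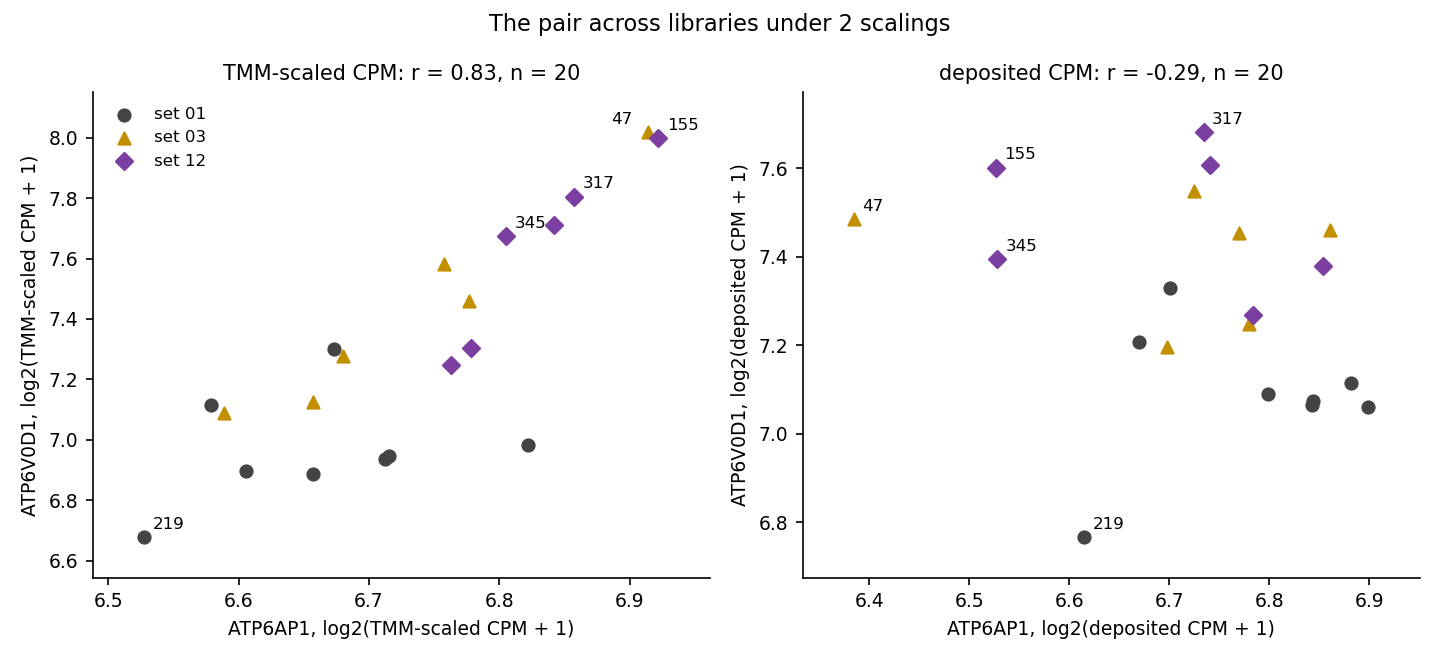
ATP6V0D1 against ATP6AP1 in the 20 libraries on the log2(CPM + 1) scale, after TMM scaling (left, r = 0.83) and as deposited (right, r = -0.29), with symbols for the sets. Steers 47, 155 and 345 lie at the upper right after scaling and at the left as deposited.

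After TMM scaling both genes followed the make-up of the library, ATP6V0D1 more closely. Across all genes, 46.4% had an r beyond 0.8 in either direction with ATP6V0D1, so moving with the libraries was not particular to it. The share of genes that follow PC1 as closely was not computed. On the TMM scale ATP6V0D1 had r = 0.94 and rho = 0.94 with the PC1 score (permutation p = 1e-05 for both, the smallest possible, adjusted over 6 relations 1.5e-05 for r), and r = 0.90 without steers 47 and 155, the farthest on PC1. ATP6AP1 had r = 0.81 and rho = 0.76 (permutation p = 1e-05 and 0.00013), and r = 0.69 without the same 2 steers. Without steers 47, 105, 155 and 317 the values were 0.85 for ATP6V0D1 and 0.57 for ATP6AP1 (n = 16, permutation tests, adjusted p = 6e-05 and 0.0228). Within the sets, ATP6V0D1 had r = 0.86 in set 01, 0.97 in set 03 and 0.92 in set 12 (exact permutation tests, adjusted over both genes, p = 0.00789, 0.0139 and 0.0389). By rank none of these passed, with rho of 0.64, 0.83 and 0.77 (exact permutation tests, adjusted p = 0.192, 0.103 and 0.103). The r of set 01 rested on steers 451 and 455, without which it was 0.36. For ATP6AP1 the within-set r was 0.15, 0.93 and 0.81 (exact permutation tests, adjusted p = 0.695, 0.0139 and 0.0597). As deposited, ATP6V0D1 kept its sign (r = 0.73) and ATP6AP1 reversed (r = -0.75).

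The log2 ratio had r = 0.90 and rho = 0.88 with the PC1 score (permutation p = 1e-05 for both, the smallest possible), and r = 0.85 without steers 47 and 155. Within the sets it had r = 0.80, 0.97 and 0.93 (exact permutation p = 0.0293, 0.00833 and 0.00972), and rho of 0.33, 0.77 and 0.89 (exact permutation p = 0.428, 0.103 and 0.0333), so that by rank only set 12 passed. Without steers 451 and 455 the r of set 01 was -0.59. The ratio also fell with the number of genes with a read (r = -0.85, permutation p = 1e-05), which was between 16165 and 17657 per library. With the share of reads in the 100 most abundant genes, between 19.7% and 31.0%, it had r = 0.86 (permutation p = 1e-05). The share was 21.3% ± 1.28 (SD, n = 8) in set 01, 23.4% ± 3.98 (SD, n = 6) in set 03 and 26.1% ± 3.49 (SD, n = 6) in set 12, and the part of library make-up in the differences between sets was not tested. These relations of the ratio were added after the data were seen.

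**Figure D4:**
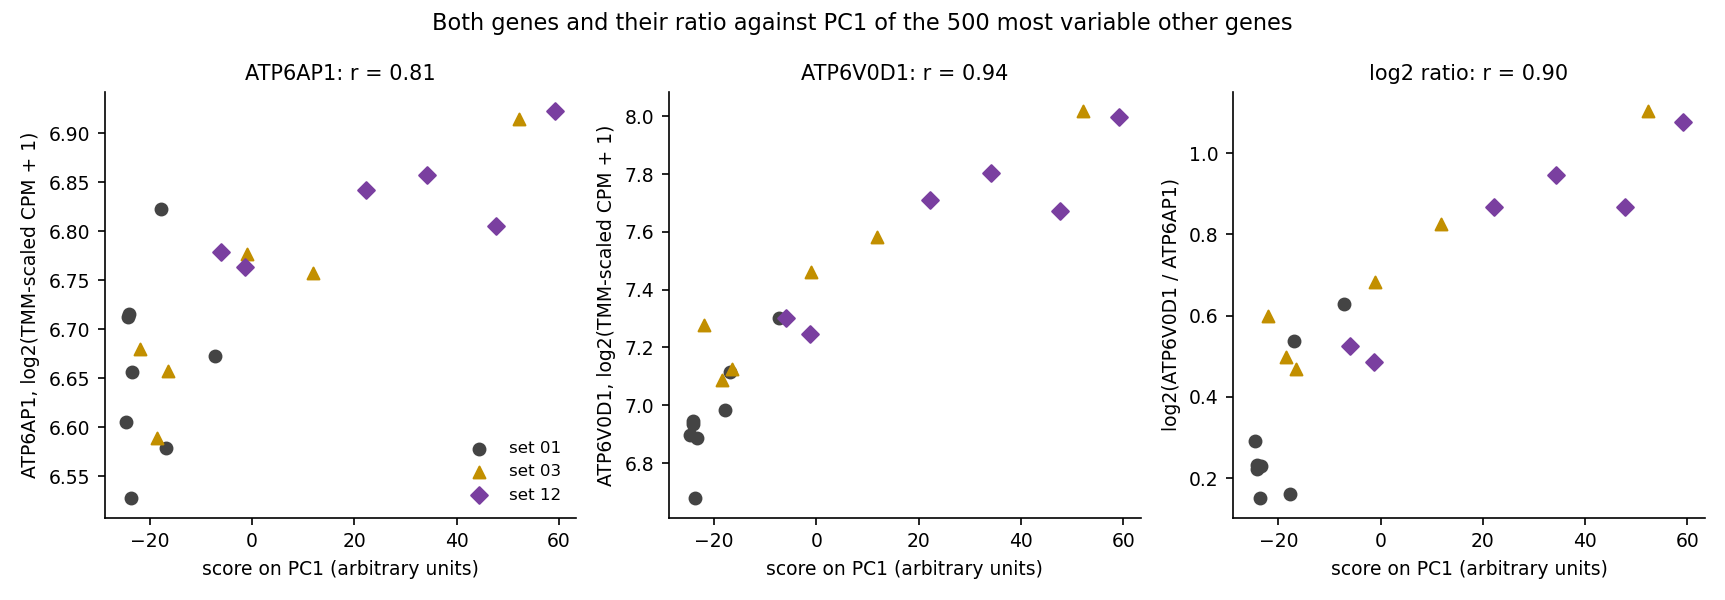
ATP6AP1, ATP6V0D1 (both log2 of TMM-scaled CPM + 1) and their log2 ratio against the score of each library on PC1 of the 500 most variable other genes, with symbols for the sets. ATP6V0D1 (r = 0.94) and the ratio (r = 0.90) rise with the score, and ATP6AP1 (r = 0.81) does so on this scale but has r = -0.75 as deposited.

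The study asked whether the tissue differs between efficient and inefficient steers. Using DESeq2 on 9 steers of each group, it reports both genes as higher in the efficient steers. Here no difference between the RFI groups was detected in either gene. On the TMM scale ATP6AP1 was between 91.2 and 115 CPM (median 101) in the 9 Low RFI libraries and between 96.4 and 120 CPM (median 107) in the 11 High RFI libraries. The means were 103 ± 8.31 (SD, n = 9) and 108 ± 7.83 (SD, n = 11), and the groups overlapped almost fully. Low minus High RFI was -0.069 on the log2 scale (SE 0.062, 95% interval -0.20 to 0.060, limma adjusted p = 1.00). ATP6V0D1 was between 101 and 223 CPM (median 157) in the Low RFI libraries and between 117 and 258 CPM (median 151) in the High RFI libraries, with means of 159 ± 37.1 (SD, n = 9) and 166 ± 54.1 (SD, n = 11). Its difference was -0.033 (SE 0.17, 95% interval -0.39 to 0.33, limma adjusted p = 1.00). In Low RFI the intervals leave room for ATP6AP1 to be lower by up to 0.20 or higher by up to 0.060. For ATP6V0D1 these limits are 0.39 and 0.33. By the study's list the 95% intervals were -0.14 to 0.15 in ATP6AP1 and -0.36 to 0.41 in ATP6V0D1. By the labels 0.0% of the genes were called by limma, with 110 of 14293 genes at an unadjusted p under 0.05. By the study's list limma called 0 of 14403 genes, with 67 at an unadjusted p under 0.05. Both edgeR and DESeq2, run by the labels only, also called 0, with 163 of 14293 and 316 of 20064 genes at an unadjusted p under 0.05. The study's grouping was not fitted with them. The log2 ratio was 0.59 ± 0.23 (SD, n = 9) in Low RFI and 0.55 ± 0.36 (SD, n = 11) in High RFI by the labels (difference 0.036, exact permutation p = 0.799), and by the study's list the difference was 0.020 (exact permutation p = 0.894).

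The sign of these small differences depended on the grouping. With the groups of the study's steer list the differences were 0.0034 in ATP6AP1 and 0.024 in ATP6V0D1 (9 against 9 libraries, limma adjusted p = 1.00 for both). For the 12 steers that both sources place alike they were -0.037 and 0.0078 (5 against 7 libraries, limma adjusted p = 1.00 for both), and without steers 47, 105, 155 and 317 they were -0.046 and 0.12 (limma adjusted p = 0.707 and 0.669). With the set as a covariate they were -0.085 and -0.10 (limma adjusted p = 0.969 for both). Within set 01, Low minus High RFI was -0.11 in ATP6AP1 and 0.10 in ATP6V0D1 (3 against 5 libraries, exact permutation p = 0.143 and 0.482, smallest possible 0.0179). Within set 03 the differences were -0.11 and -0.40 (3 against 3 libraries, exact permutation p = 0.3 and 0.2) and within set 12 they were -0.029 and -0.059 (exact permutation p = 0.7 and 0.9), and no split of 3 against 3 can go below 0.1. In both of these sets the labels also go fully with the first letter of the code. By the study's list the differences within set 01 were 0.0024 and 0.080 (4 against 4 libraries, exact permutation p = 0.971 and 0.6), and both signs turned within set 03, to 0.064 and 0.10 (3 against 2 libraries, exact permutation p = 0.7 and 0.9). Within set 12 they were -0.025 and -0.099 (2 against 3 libraries, exact permutation p = 0.9 and 0.8). A difference between sets in the RFI contrast was not called for either gene (limma F-test of the interaction, adjusted p = 0.905 and 0.804, with 0.0% of the genes called and 313 at an unadjusted p under 0.05), nor by the study's list (adjusted p = 0.970 and 0.968).

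**Figure D5:**
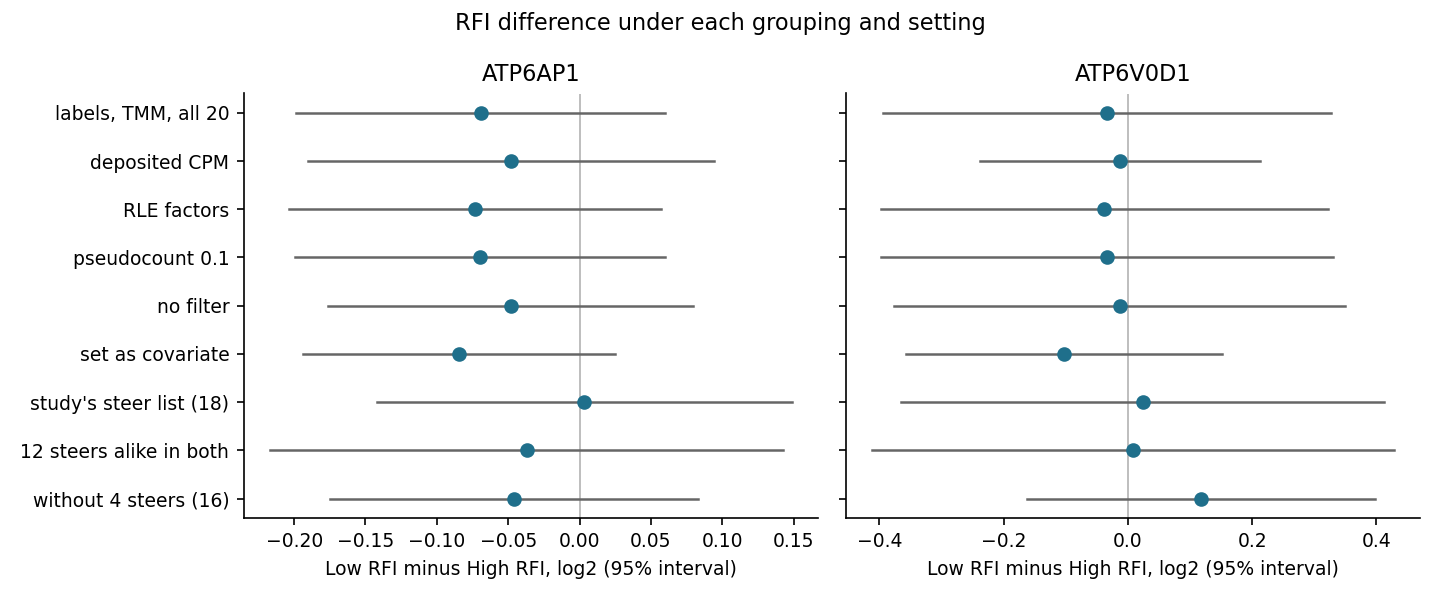
Low RFI minus High RFI on the log2(CPM + 1) scale for ATP6AP1 (left) and ATP6V0D1 (right) under each scaling, filter, covariate and grouping, with 95% intervals from limma. Every interval includes 0.

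The libraries of the 5 steers of set 01 labelled High RFI were close to each other in ATP6V0D1, although the study's list places 3 of them (steers 23, 33 and 205) in the low group. Their ATP6V0D1 levels were 121, 122, 117, 125 and 118 TMM-scaled CPM (steers 11, 23, 33, 201 and 205), with an SD of 3.32, while the 3 Low RFI libraries of the set had 101, 157 and 138 CPM (steers 219, 451 and 455) and an SD of 28.1. For ATP6AP1 the SDs were 5.90 and 4.99 CPM. The 5 High RFI libraries and that of steer 219 have codes starting with A or B, and those of steers 451 and 455 start with C. Label and code letter therefore partly go together in this set, and the part of each was not tested. In sets 03 and 12 every code of a library labelled High RFI starts with A and every one labelled Low RFI with B. Label and letter cannot be told apart in those sets. In set 03 the 3 High RFI libraries had 258, 154 and 191 CPM (steers 47, 51 and 55) and the 3 Low RFI libraries 139, 135 and 175 CPM (steers 271, 281 and 299). In set 12 these were 208, 151 and 255 CPM (steers 105, 115 and 155) against 223, 203 and 157 CPM (steers 317, 345 and 409). The groups overlapped in each set, and the highest and the lowest ATP6V0D1 level of the series belonged to a High RFI and a Low RFI steer by the labels, to whom the study's list gives the opposite groups.

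Genes whose levels followed the pair were looked for among the 103 other genes tested that could be given a symbol. These symbols come from the study's list of genes that it reports to differ between its RFI groups. The list was chosen on these samples, so what is common among its genes is not independent evidence. The correlations below are descriptions over 20 libraries that share their scaling. For ATP6AP1 the closest was MAN2B1, a lysosomal mannosidase (r = 0.86, rank 27 of 14292 genes), followed by CAPNS1, the small subunit of calpains (r = 0.86), VASN (r = 0.83), SH3BGRL3 (r = 0.83) and GNB2, a G protein beta subunit (r = 0.83). ATP6V0D1 itself ranked 208 of 14292 for ATP6AP1. The most opposite genes were CENPE, a kinetochore motor (r = -0.86), the Golgi tether GOLGB1 (r = -0.83), TARDBP, an RNA-binding protein (r = -0.83), YTHDC2, an RNA helicase (r = -0.82), and FAR1, a fatty acyl-CoA reductase (r = -0.82).

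For ATP6V0D1 the closest was TECR, an enzyme of very long chain fatty acid elongation (r = 0.95, rank 38 of 14292), followed by SH3BGRL3 (r = 0.94), ACTB (r = 0.93), ETHE1, a mitochondrial enzyme of sulfide breakdown (r = 0.93), and CAPNS1 (r = 0.93). Reads of ACTB are uncertain because actin genes resemble each other. Among the most opposite were CENPE (r = -0.97), GOLGB1 (r = -0.96), the splicing factor PRPF8 (r = -0.94) and the adaptor APBB2 (r = -0.93). So close a likeness was common here, since 46.4% of all genes had an r beyond 0.8 in either direction with ATP6V0D1, against 10.7% with ATP6AP1, and ATP6AP1 ranked 2775 of 14292 for ATP6V0D1. Without steers 47, 105, 155 and 317 these shares were 17.0% and 0.0490%, TECR remained closest to ATP6V0D1 (r = 0.94) and PLBD2, a lysosomal protein, came first for ATP6AP1 (r = 0.75). As deposited, the closest genes were TECR for ATP6V0D1 (r = 0.85) and CLPTM1 for ATP6AP1 (r = 0.88).

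Other genes of lysosomes, endosomes and the Golgi went both ways between the sets. Of 12 such genes in the study's list, all of them tested, 5 were higher and 4 lower in set 12 than in set 01 by limma and 3 were not called, where 62.5% of all genes were called (30.8% higher and 31.6% lower), with a median log2 difference of 0.053 against -0.0076 over all genes. With CPM as deposited 2 were called higher and 6 lower, where 2905 of all 14293 genes were called higher and 5585 lower. Without steers 47, 105, 155 and 317 these were 2 and 3, against 3082 and 3247 of all 14269 genes. The small GTPase RAB25, which works in apical recycling, rose from 14.6 ± 1.41 to 30.5 ± 10.4 TMM-scaled CPM (SD, n = 8 and 6; log2 difference 0.96, limma adjusted p = 0.00259). GABARAP, an autophagosome protein, rose by 0.54 (limma adjusted p = 0.00434), SH3GLB2 by 0.37 (0.0110), MAN2B1 by 0.24 (0.0204) and PLBD2 by 0.20 (0.0320). The lipid transporter VPS13D fell by 1.29 (limma adjusted p = 0.00171), GOLGB1 fell by 1.31 (0.00261), the Golgi tether GCC2 fell by 1.47 (0.0105) and SH3GL1 fell by 0.33 (0.00586). CNIH1, DNM2 and HGS had differences of 0.26, -0.14 and -0.097 that did not pass. In Low against High RFI 0 of the 12 were called by limma with either grouping, and by the labels their log2 differences were between -0.092 and 0.17.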

How the data were processed

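RNA from rumen papillae of 20 steers was sequenced as paired reads, 1 library per steer. The authors aligned reads to UMD3.1 with TopHat2 (version 2.0.10 in the submitters' processing notes) and counted them per Ensembl gene with HTSeq. The deposited values are CPM, relative to all reads counted on genes. Dividing by the smallest value above 0 gave whole reads for 100.0% of the values (within 0.01 reads). The extraction named in the sample labels differs from that in the Methods.

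The members and lists were chosen with earlier results of these data known. CPM were scaled by TMM (edgeR 4.0.16) and log2-transformed with a pseudocount of 1. A fold change on this scale understates the change of low genes. The 14293 genes past filterByExpr (minimum count 10) were fitted with limma 3.58.1 (trend) in R 4.3.3, with Benjamini-Hochberg adjustment over all of them and a threshold of 0.05. edgeR's quasi-likelihood test and DESeq2 1.42.0 on the recovered reads were alternatives, with the RFI groups of the labels only. Single values were compared by exact two-sided permutation tests, and correlations used 100000 permutations, or all pairings within sets (Python 3.11.15, scipy 1.17.1). A p-value here sets a difference against the spread between libraries. With 1 library per steer, that spread does not separate steer, tissue sampling and library preparation. No pair of libraries was alike: each pair differed in reads of at least 16544 genes.

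The genes named are ATP6AP1 and ATP6V0D1, the V-ATPase and endomembrane lists, the cell type markers, and the 5 highest and 5 lowest correlations with each gene among genes with a symbol, except 1 gene that is not reported here. PLBD2 and CLPTM1 were named as the first of the same ranking under other settings. Symbols came from the study's supplement, since 0 of the identifiers occur in the reference gene table. In simulated data 14293 genes were drawn with the spread within the sets, with 100 changed 1.5-fold and 100 changed 2-fold. For Low against High RFI limma recovered 41% and 63% with 5 false calls, and for set 12 against set 01 15% and 50% with 2. The RFI groups of the real data also hold the differences between sets, which were not simulated. The recovery for RFI may therefore be too high. Each gene was also drawn independently of the others, while many real genes move together here. The numbers of false calls may therefore not carry over. Counting errors of single libraries and floors cover counting error only, and the 95% intervals of limma hold the spread between libraries of different steers. Alternatives were scaling, pseudocount, filter, test, grouping, covariates, and leaving out libraries.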

Additional observations from a re-analysis of the deposited data

How the results depend on the processing

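Most values kept their direction and their side of the threshold. No paired analysis was possible because each steer gave 1 library and the labels carry no replicate numbers shared between groups. In the RFI contrast the sign turned with the study's steer list (0.0034 in ATP6AP1 and 0.024 in ATP6V0D1), for ATP6V0D1 also with the 12 steers alike in both sources (0.0078) and without steers 47, 105, 155 and 317 (0.12). Leaving out each library in turn gave -0.089 to -0.043 for ATP6AP1, -0.098 to 0.048 for ATP6V0D1 (above 0 without steer 47, 105, 155 or 219) and -0.0091 to 0.091 for the log2 ratio (below 0 without steer 201 or 317). For ATP6AP1, deposited CPM turned the signs of set 03 minus 01 (-0.079), set 12 minus 01 (-0.087) and set 12 minus 03 (-0.0083). Set 12 minus 01 was 0.15 to 0.20 when each library was left out and lost its call without steer 105 (0.16, limma adjusted p = 0.0536), 155 (0.15, 0.0755) or 317 (0.16, 0.0587), and without all 4 steers (0.13). The F-test over the sets for ATP6AP1 had adjusted p between 0.0361 and 0.181, passing without steer 47 (0.0361) or 201 (0.0459). For ATP6V0D1, set 03 minus 01 passed with DESeq2 (0.47, adjusted p = 0.0490). The log2 ratio of set 12 minus 01 was 0.32 without the 4 steers (exact permutation, adjusted p = 0.0545).

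The r of the pair was -0.29 on deposited CPM, -0.042 there without the 4 steers, and within sets 0.30 (set 01), and 0.15, -0.18 and -0.25 as deposited. The r of ATP6AP1 on deposited CPM was -0.75 with PC1, 0.86 with genes detected and -0.80 with the share of the 100 most abundant genes. It was 0.15 and 0.81 with PC1 within sets 01 and 12, and without the 4 steers -0.39 with genes detected and 0.48 with that share. The coefficient of variation without the 4 steers was 6.10% for ATP6AP1 and 19.5% for ATP6V0D1, and 16% for ATP6V0D1 as deposited. Genes called over the sets fell to 1928 without the 4 steers, and were 4714 to 9610 with each library left out (4714 without steer 155 and 4778 without 345). Genes called for set 03 minus 01 were 101 with edgeR, 726 with DESeq2 and 17 to 277 with each library left out. For set 12 minus 03 they were 132 on deposited CPM, 18 without the 4 steers, 217 with edgeR, 1000 with DESeq2 and 7 to 7375 with each library left out (7375 without steer 47). The cause was not tested. Correlations within sets on deposited CPM or with PC1, deposited CPM without the 4 steers, relations of the ratio and settings for the endomembrane genes were added after seeing the data. The intervals of the RFI differences, which include 0, give the sizes that these 20 libraries do not exclude.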
